A study of Mus musculus with 9 samples.

Results

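Bcl6, Bach1, Bach2, Prdm1 and Xbp1 are the 5 genes described here, of 50686 genes in the count files. They were chosen by name, as the BCL6 and BACH repressors and the plasma-cell factors that oppose them, and all 5 were found in the files. RNA-seq was carried out on mouse bone marrow cells transformed with the oncogene BCR/ABLp185, on a C57BL/6N background. The groups were wild-type (wt) cells, cells that lack Stat5a (Stat5a-/-) and cells that lack Stat5b (Stat5b-/-), and all 3 groups carried BCR/ABLp185. Each group was 1 cell line sequenced as 3 technical replicates, so that the 9 libraries give the spread between technical replicates of a line, and genotype and cell line cannot be told apart. The p-values therefore measure only the spread between these libraries.

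In B-lineage cells, BCL6 is a transcriptional repressor that holds back differentiation and damage responses. BACH1 and BACH2 are repressors that bind DNA with small MAF proteins, and BACH2 keeps B cells from becoming plasma cells. BLIMP-1, encoded by Prdm1, shuts down the B-cell programme in plasma cells, and XBP1 drives the expansion of the secretory apparatus. BCL6 and BLIMP-1 are known to repress each other's genes, and STAT5 is known to repress Bcl6 in pre-B cells.

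STAT5 binds the motif TTCNNNGAA, which reads the same on both strands. The RefSeq promoter windows of the 5 genes (GRCm38.p6, 250 bases before and 50 after each start) were searched for it, since the STAT5 proteins are the factors deleted in these lines. Of the 6 windows of the 5 genes, 3 held a match, against 8.298% of all 32851 windows. The 250 upstream bases of these 3 windows are shown 5′ to 3′ on the strand of the gene, with each match in capitals.
Bcl6 inner start, chr16:23981284-23981533, minus strand: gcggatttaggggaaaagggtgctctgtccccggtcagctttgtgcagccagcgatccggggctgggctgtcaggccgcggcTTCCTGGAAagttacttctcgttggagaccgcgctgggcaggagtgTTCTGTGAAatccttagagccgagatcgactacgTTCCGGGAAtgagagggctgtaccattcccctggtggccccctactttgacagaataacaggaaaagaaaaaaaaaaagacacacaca
Bcl6 outer start, chr16:23988853-23989102, minus strand: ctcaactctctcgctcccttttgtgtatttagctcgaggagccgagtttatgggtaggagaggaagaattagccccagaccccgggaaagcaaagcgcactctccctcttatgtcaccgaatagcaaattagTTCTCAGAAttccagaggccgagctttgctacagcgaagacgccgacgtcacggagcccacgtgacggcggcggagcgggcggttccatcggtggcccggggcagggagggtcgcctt
Bach2 inner start, chr4:32417185-32417434, plus strand: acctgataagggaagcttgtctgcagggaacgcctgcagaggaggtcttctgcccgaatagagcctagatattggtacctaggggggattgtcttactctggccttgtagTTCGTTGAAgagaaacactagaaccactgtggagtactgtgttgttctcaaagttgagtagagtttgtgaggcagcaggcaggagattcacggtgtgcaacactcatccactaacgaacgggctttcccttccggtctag
The inner Bcl6 window held 3 matches, which began 168, 122 and 88 bases before the start, and 11 of the 32851 windows (0.033%) held 3 or more. The outer Bcl6 window and the Bach2 window held 1 match each. These bases lie outside the exons that were counted. A match is a run of letters, and binding was not measured in these files. The windows of Bach1, Prdm1 and Xbp1 held none of these letters.

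Library totals ranged from 11948136 to 19016396 counted reads, and 13852 genes passed the filter on low counts. All 5 genes passed. Each deleted gene was lowest in the line labelled as lacking it. Stat5a measured 11.8 to 13.6 normalized CPM (counts scaled to library size) in the Stat5a-/- libraries and 36.0 to 48.1 in the wt libraries. Stat5b measured 58.4 to 72.2 CPM in the Stat5b-/- libraries and 103 to 107 in the wt libraries, so reads over the gene remained after the deletion. Markers of T cells summed to 862 to 1173 CPM in wt, 1512 to 1748 in Stat5a-/- and 1904 to 2711 in Stat5b-/- libraries. All 16 T-cell markers had reads in every library, and 15 of 16 rose in Stat5b-/- against wt. Of 12 markers of B-cell progenitors, which summed to 5656 to 7818 CPM, 6 rose and 4 fell in Stat5b-/- and 6 rose and 3 fell in Stat5a-/- against wt, with Rag1 and Rag2, the recombinase of immunoglobulin genes, fallen in both knockouts. Of 10 myeloid markers 5 were high enough to be tested, and 4 of these rose in Stat5b-/- against wt. Among the 4, Csf1r and Fcgr3 had at most 14 and 18 reads in a wt library. Ly6c2 alone gave 180 of the mean myeloid sum of 198 CPM in wt. Of all genes tested, 46.2% rose or fell in Stat5b-/- and 36% in Stat5a-/- against wt. In such bulk samples, fewer cells of a type and less RNA per cell cannot be told apart.

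Per kilobase of exon, the 5 genes kept 1 order of levels in all 9 libraries, with Xbp1 highest, then Bach2, Bach1, Bcl6 and Prdm1. In wt cells the length-scaled level was 33.8 ± 2.27 CPM per kb for Xbp1 and 24.8 ± 1.88 for Bach2 (SD, n = 3). Bach1 was at 3.74 ± 0.121 CPM per kb and Bcl6 at 1.48 ± 0.112. Prdm1 was lowest, at 0.129 ± 0.0670 CPM per kb. Neighbours in this order did not overlap within any group.

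**Figure D1:**
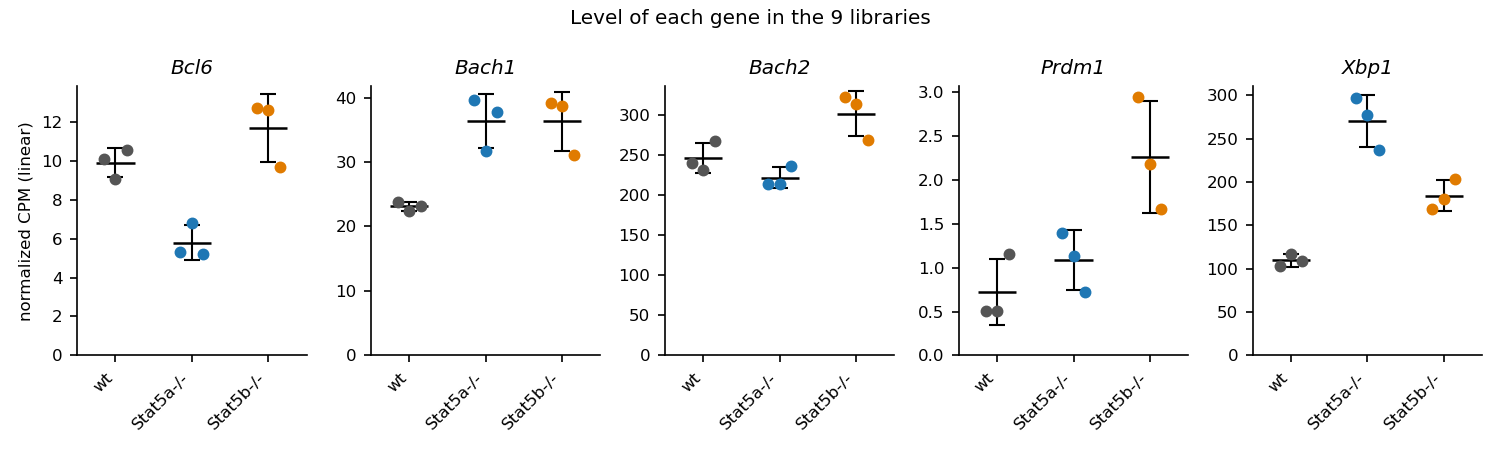
Normalized CPM on a linear axis (y) in the wt, Stat5a-/- and Stat5b-/- libraries (x), 1 panel per gene; points are libraries, horizontal lines are means and error bars are SD (n = 3). Bcl6 is lowest in the Stat5a-/- libraries, at 5.22 to 6.83 CPM, and Xbp1 is highest there, at 237 to 297 CPM.

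In the quasi-likelihood test of edgeR, adjusted by Benjamini-Hochberg over all genes tested, 4 of the 5 genes rose and 0 fell in Stat5b-/- against wt cells. A gene is said to rise or fall at an adjusted p under 0.05, and 46.2% of all genes tested passed this limit in either direction in that comparison, 24.2% higher and 22% lower. In Stat5a-/- against wt cells 2 rose and 1 fell, beside 36% of all genes, 19.8% higher and 16.3% lower. Between the knockouts, 3 were higher and 1 was lower in Stat5b-/-, beside 33.9% of all genes, 16.4% higher and 17.5% lower. With an absolute log2 fold change above 1 as a further limit, 1, 1 and 2 members passed, beside 19.1%, 14.2% and 11.4% of all genes. Both comparisons with wt share the same 3 wt libraries. With the summed T-cell markers as a covariate, 0 of the 5 genes passed in Stat5b-/- against wt, beside 10.8% of all genes in that fit, and since these sums did not overlap between the 2 lines, genotype and markers cannot be told apart in it. There the log2 fold change was 0.96 (SE 0.34) for Bach1 and 0.44 (SE 0.29) for Bach2, larger than without the covariate and with larger errors, and 0.42 (SE 0.31) for Xbp1, smaller than without it.

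**Figure D2:**
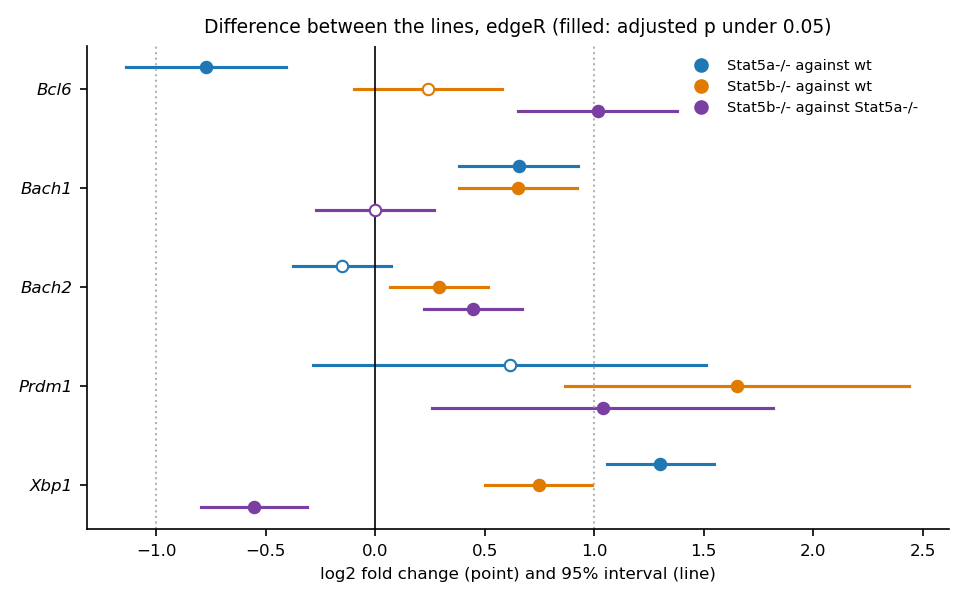
Log2 fold change (x) of the 5 genes (y) in the 3 comparisons, with 95% intervals as lines; filled points passed an adjusted p of 0.05 and dotted lines mark a log2 fold change of 1 in either direction. The interval of Prdm1 in Stat5b-/- against wt, 0.86 to 2.44, is wide, and that of Bach1 between the knockouts, -0.27 to 0.27, spans 0.

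Bcl6 (ENSMUSG00000022508.5, chr16:23965052-23988852, minus strand, GRCm38) was lower in Stat5a-/- cells than in both other lines. It measured 10.1, 9.08 and 10.6 CPM in the wt libraries, 5.31, 6.83 and 5.22 in the Stat5a-/- libraries and 12.7, 12.6 and 9.66 in the Stat5b-/- libraries. The Stat5a-/- libraries lay below all others, while the wt and Stat5b-/- libraries overlapped. Against wt, Bcl6 fell by 0.77 on the log2 scale in Stat5a-/- cells (SE 0.17, adjusted p = 0.00267, edgeR). With the T-cell marker covariate the call was lost, at -0.67 with a larger error (SE 0.29, adjusted p = 0.116, edgeR). The marker sums did not overlap between these lines either. Between the knockouts it was 2.02-fold higher in Stat5b-/- cells (log2 fold change 1.01, SE 0.17, adjusted p = 4.84e-04, edgeR). In Stat5b-/- against wt cells the log2 fold change was 0.24 (95% interval -0.10 to 0.58) and did not pass (adjusted p = 0.230, edgeR). These values rest on 58 to 186 reads per library, and counting used no strand, with 21 exon bases shared with the antisense gene Gm37419.

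The factors known to act on Bcl6 were of both kinds. Foxo1, a transcription factor that activates Bcl6, measured 385 ± 24.3 CPM in wt, 276 ± 8.47 in Stat5a-/- and 418 ± 6.68 in Stat5b-/- cells (SD, n = 3). It fell in Stat5a-/- against wt (log2 fold change -0.48, SE 0.09, adjusted p = 8.5e-04, edgeR) and was higher in Stat5b-/- than in Stat5a-/- (0.60, SE 0.09). Irf8, an interferon regulatory factor, had the same order of calls, with a log2 fold change of -0.67 (SE 0.13) in Stat5a-/- against wt and 0.51 (SE 0.13) between the knockouts. Irf4, known to repress Bcl6 and to promote plasma cells, rose in both knockouts, from 114 ± 11.2 CPM in wt to 201 ± 4.66 in Stat5a-/- and 267 ± 8.53 in Stat5b-/- cells. Of the 6 tested genes of this list, 1 rose and 1 fell in Stat5b-/- against wt, beside 46.2% of all genes called. In Stat5a-/- against wt 1 rose and 3 fell, beside 36%. Between the knockouts 4 were higher in Stat5b-/- and 0 lower, beside 16.4% and 17.5% of all genes.

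Of the 10 tested corepressors and partners of BCL6, 3 rose and 0 fell in Stat5b-/- against wt, beside 46.2% of all genes called. In Stat5a-/- against wt 3 rose and 1 fell, a share near the 36% of all genes. Mta3, a BCL6 corepressor subunit, measured 73.4 ± 0.576 CPM in wt, 51.9 ± 3.80 in Stat5a-/- and 134 ± 14.6 in Stat5b-/- cells, a fall in the former knockout and a rise in the latter. Hdac3, a histone deacetylase, rose in Stat5a-/- cells against wt (0.58, SE 0.09), and was lower in Stat5b-/- than in Stat5a-/- (-0.60, SE 0.09). Ncor1 and Bcor did not pass in any comparison, and the log2 fold change of Bcor in Stat5b-/- against wt was 0.28 (adjusted p = 0.0528, edgeR). Bcl6b, the paralogue of Bcl6, was too low to be tested.

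Bach1 (ENSMUSG00000025612.5, chr16:87698945-87733346, plus strand) was higher in both knockouts. It measured 23.8, 22.3 and 23.2 CPM in the wt libraries, 39.6, 31.7 and 37.8 in the Stat5a-/- libraries and 39.2, 38.7 and 31.0 in the Stat5b-/- libraries. All 6 knockout libraries lay above the 3 wt libraries, and both knockouts overlapped. Bach1 rose 1.57-fold in each, with a log2 fold change of 0.65 (SE 0.13, adjusted p = 0.00108, edgeR) in Stat5a-/- and 0.65 (SE 0.12, adjusted p = 8.66e-04, edgeR) in Stat5b-/- cells. The 95% interval of the difference between the knockouts ran from -0.27 to 0.27 on the log2 scale.

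Bach2 (ENSMUSG00000040270.16, chr4:32238804-32586108, plus strand) differed less. It measured 240, 232 and 268 CPM in the wt libraries, 214, 214 and 237 in the Stat5a-/- libraries and 322, 314 and 269 in the Stat5b-/- libraries. The lowest Stat5b-/- library lay just above the highest wt library, and the wt and Stat5a-/- libraries overlapped. Bach2 was 1.36-fold higher in Stat5b-/- than in Stat5a-/- cells (log2 fold change 0.45, SE 0.10, adjusted p = 0.00521, edgeR). Against wt it rose 1.22-fold in Stat5b-/- cells (0.29, SE 0.10, adjusted p = 0.0340, edgeR), and in Stat5a-/- cells its log2 fold change was -0.15 (SE 0.10, adjusted p = 0.273, edgeR). The rise against wt was lost without any 1 of wt replicates 1 and 2, Stat5a-/- replicates 1 and 2 or Stat5b-/- replicates 1 and 2, where the log2 fold change was 0.27, 0.24, 0.27, 0.27, 0.22 and 0.26. The gene shares 537 exon bases with the antisense gene Bach2os, whose reads cannot be told apart without strand.

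Per kilobase, the ratio of Bach2 to Bach1 was highest in wt cells, at 6.63 ± 0.481, and lowest in Stat5a-/- cells, at 3.82 ± 0.418, with 5.18 ± 0.188 in the Stat5b-/- line (SD, n = 3). The 3 groups did not overlap in this ratio. The BACH partner genes moved in both directions. Of 7 tested, 1 rose and 3 fell in Stat5b-/- against wt, beside 46.2% of all genes called. In Stat5a-/- against wt 2 rose and 1 fell, beside 36%. Nfe2l2, which encodes the activator NRF2 that competes with BACH1 for the same sites, rose in both knockouts, from 134 ± 3.58 CPM in wt to 190 ± 13.7 in Stat5a-/- and 173 ± 11.4 in Stat5b-/- cells. Among the small MAF genes, Maff fell in Stat5b-/- cells by 1.23 on the log2 scale (SE 0.21) and Mafg by 0.43 (SE 0.16), while Mafk did not pass in any comparison.

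Prdm1 (ENSMUSG00000038151.13, chr10:44437177-44528501, minus strand) was the lowest of the 5 genes and had the largest fold of the 5 in Stat5b-/- against wt. Its reads numbered 8, 10 and 20 in the wt libraries, 20, 14 and 8 in the Stat5a-/- libraries and 43, 32 and 22 in the Stat5b-/- libraries. In CPM these were 0.51, 0.50 and 1.15, then 1.40, 1.14 and 0.72, then 2.94, 2.18 and 1.67. The Stat5b-/- libraries lay above all others, and the wt and Stat5a-/- libraries overlapped. Prdm1 rose 3.14-fold in Stat5b-/- against wt (log2 fold change 1.65, SE 0.36, adjusted p = 0.00236, edgeR) and was 2.05-fold higher than in Stat5a-/- cells (1.04, SE 0.36, adjusted p = 0.0407, edgeR). In Stat5a-/- against wt the log2 fold change was 0.61 (SE 0.41) and did not pass (adjusted p = 0.278, edgeR). This value ran from 0.36 without Stat5a-/- replicate 1 to 1.11 without wt replicate 3, and it did not pass with any 1 of the 9 libraries left out. The difference between the knockouts was lost without Stat5a-/- replicate 2 or 3 or Stat5b-/- replicate 1 or 2, where the log2 fold change was 1.05, 0.84, 0.80 and 1.07. The summed T-cell markers were also higher in Stat5b-/- than in wt cells, at 2400 ± 435 against 1038 ± 160 CPM. Over Stat5b-/- replicates 1, 2 and 3 they measured 2711, 1904 and 2586 CPM, which is not the order of Prdm1. With these sums as a covariate, the log2 fold change was 0.93 in Stat5b-/- against wt (adjusted p = 0.616, edgeR) and 0.72 between the knockouts (adjusted p = 0.465, edgeR), neither past the limit, in a fit where genotype and markers cannot be told apart.

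Xbp1 (ENSMUSG00000020484.18, chr11:5520659-5525893, plus strand) was higher in both knockouts and highest in Stat5a-/- cells. It measured 103, 117 and 109 CPM in the wt libraries, 297, 277 and 237 in the Stat5a-/- libraries and 168, 180 and 203 in the Stat5b-/- libraries. The 3 groups did not overlap. Xbp1 rose 2.47-fold in Stat5a-/- cells (log2 fold change 1.30, SE 0.11, adjusted p = 1.08e-06, edgeR) and 1.68-fold in Stat5b-/- cells (0.75, SE 0.11, adjusted p = 1.33e-04, edgeR). Stat5b-/- cells held less of it than Stat5a-/- cells (log2 fold change -0.56, SE 0.11, adjusted p = 0.00203, edgeR). Gene counts do not separate spliced Xbp1, which encodes the active factor, from the unspliced form.

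The genes of the secretory pathway, on which XBP1 is known to act, moved in both directions. Of 28 tested, 3 rose and 14 fell in Stat5b-/- against wt, where 24.2% of all genes rose and 22% fell. The median log2 fold change was -0.34, beside 0.023 over all genes. The T-cell markers moved in the same comparison, 15 of 16 of them upward. With their sum as a covariate 0 of the 28 rose and 3 fell, beside 10.8% of all genes called. In that fit genotype and markers cannot be told apart. In Stat5a-/- against wt, 4 rose and 6 fell, with a median of -0.061, and without Stat5a-/- replicate 1 the number that rose was 2. The share called there was near the 36% of all genes. Dnajb9 and Edem1, a chaperone and a factor of protein degradation in the endoplasmic reticulum, and Sec61a1, the channel of the translocon, rose in both knockouts. Edem1 measured 66.6 ± 2.31 CPM in wt, 129 ± 7.37 in Stat5a-/- and 132 ± 7.50 in Stat5b-/- cells (SD, n = 3). Hspa5, the chaperone BiP, measured 597 ± 13 CPM in wt, 509 ± 25.2 in Stat5a-/- and 319 ± 58.1 in Stat5b-/- cells, a fall in Stat5b-/- cells (log2 fold change -0.90, SE 0.12), while its value in Stat5a-/- against wt was -0.23 (adjusted p = 0.17, edgeR). Herpud1, a factor of protein degradation at the endoplasmic reticulum, fell in Stat5a-/- cells (-0.36, SE 0.10), and its value in Stat5b-/- against wt was -0.25 (adjusted p = 0.0575, edgeR). Sec24d, a subunit of the coat of transport vesicles, and Serp1, a translocon-associated protein, fell in both. Ern1, which encodes the sensor IRE1 that splices Xbp1, stayed between mean levels of 13.8 and 14.9 CPM and did not pass in any comparison. Of the 6 sensors and factors of the unfolded protein response, 0 rose and 2 fell against wt in each knockout, Atf4 and Ddit3 in both. Of all genes, 22% fell in Stat5b-/- and 16.3% in Stat5a-/- cells against wt.

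**Figure D3:**
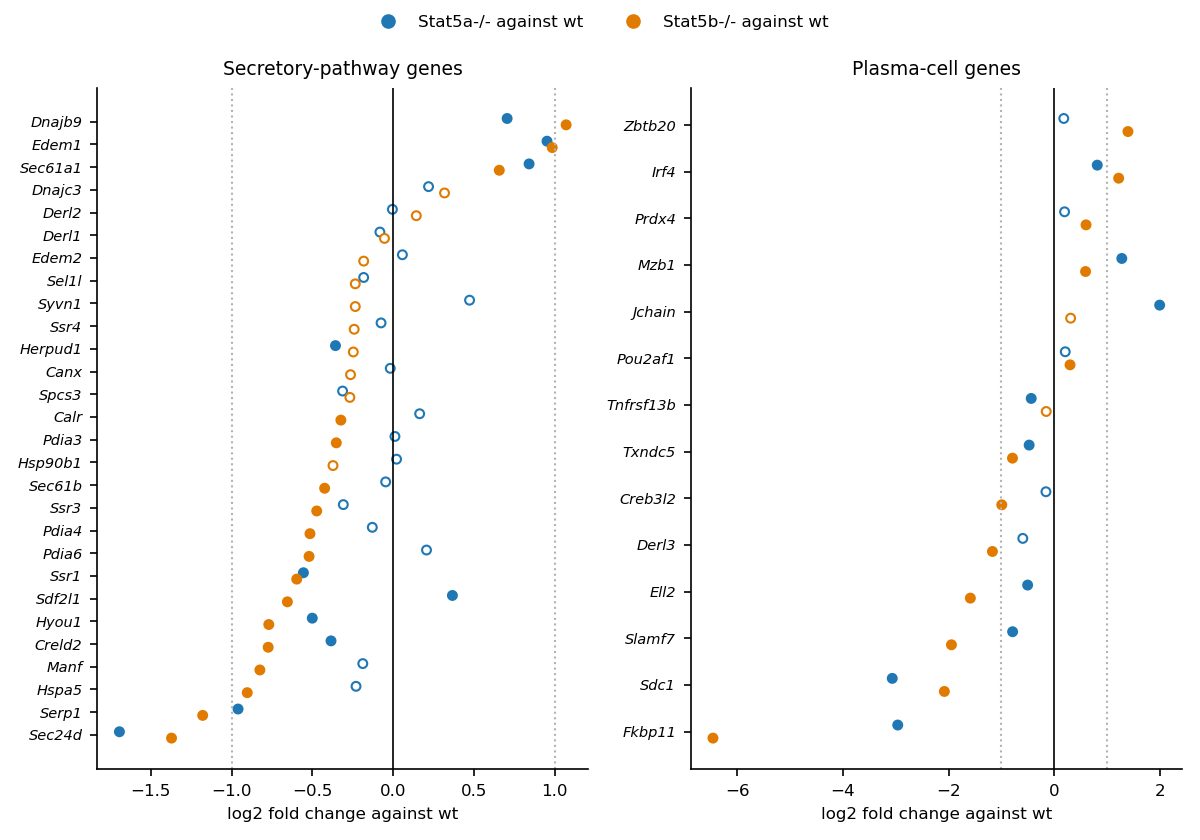
Log2 fold change against wt (x) of the tested secretory-pathway and plasma-cell genes (y) in Stat5a-/- and Stat5b-/- cells; filled points passed an adjusted p of 0.05 and dotted lines mark a log2 fold change of 1 in either direction. In Stat5b-/- cells 14 of the 28 secretory-pathway genes fell and 3 rose, beside 22% and 24.2% of all genes.

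Genes of plasma cells moved both ways. Of 14 tested, 5 rose and 7 fell in Stat5b-/- against wt, beside 46.2% of all genes called. In Stat5a-/- against wt 3 rose and 6 fell, beside 36%. With the summed T-cell markers as a covariate, 1 rose and 3 fell in Stat5b-/- against wt, beside 10.8% of all genes. For Stat5a-/- against wt 2 rose and 3 fell, beside 23.6%. Genotype and markers cannot be told apart in that fit. Sdc1, which encodes the plasma-cell surface marker CD138, fell from 33.1 ± 4.14 CPM in wt to 3.97 ± 0.863 in Stat5a-/- and 7.81 ± 1.14 in Stat5b-/- cells. Slamf7, a surface receptor of plasma cells, fell in both as well, with log2 fold changes of -0.79 (SE 0.13) in Stat5a-/- and -1.95 (SE 0.14) in Stat5b-/- cells. Fkbp11, a secretory-pathway isomerase, had 693 reads over the wt libraries, 64 over the Stat5a-/- and 6 over the Stat5b-/- libraries. Its share of reads was 94.4 times higher in wt than in Stat5b-/- cells (95% exact interval 43.1 to 258, counting error only). Mzb1, a chaperone of immunoglobulin assembly, rose from 410 ± 21.7 CPM in wt to 996 ± 32.1 in Stat5a-/- and 619 ± 69.0 in Stat5b-/- cells. Jchain, the joining chain of secreted antibodies, rose in Stat5a-/- cells (log2 fold change 2.00, SE 0.42) from a mean of 0.812 CPM. Tnfrsf17, the BCMA receptor of plasma cells, had 0 reads in all 9 libraries.

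Among genes that BLIMP-1 is known to repress, 6 rose and 2 fell of 8 tested in Stat5b-/- against wt, beside 46.2% of all genes. In Stat5a-/- against wt 3 rose and 1 fell, beside 36%. Spib, a B-cell transcription factor, measured 38.3 ± 0.972 CPM in wt, 195 ± 18.6 in Stat5a-/- and 112 ± 15.9 in Stat5b-/- cells, a rise in both. Id3, an inhibitor of E proteins, rose in Stat5b-/- cells (log2 fold change 1.38, SE 0.14). Pax5, the factor that sets B-cell identity, fell there by 0.39 (SE 0.15, adjusted p = 0.0445, edgeR), and Myc, the growth regulator, by 1.93 (SE 0.13). Ciita, the activator of MHC class II genes, rose in Stat5b-/- cells from a mean of 0.488 to 1.22 CPM.

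Of 18 tested genes known as BCL6 targets, 9 rose and 3 fell in Stat5b-/- against wt, beside 46.2% of all genes called. Their median log2 fold change was 0.40, beside 0.023 over all genes, and 15 of 16 T-cell markers rose in that comparison too. In Stat5a-/- against wt 2 rose and 2 fell, beside 36%, with a median of 0.10 beside 0.0099. Bcl6 itself was lower in Stat5a-/- cells, and a link between its level and these genes was not tested. Irf7 and Cxcl10, genes of the interferon response, rose in Stat5b-/- cells with log2 fold changes of 2.34 (SE 0.15) and 1.60 (SE 0.29). Cxcl10 was low, with 10 to 12 reads per wt library and 22 to 28 per Stat5b-/- library. Id2, an inhibitor of E proteins, fell in Stat5a-/- (-0.68, SE 0.13) and rose in Stat5b-/- cells (0.71, SE 0.12). Cdkn2a, which encodes the tumour suppressors p16 and p19 ARF, fell in both, from 165 ± 12.7 CPM in wt to 13.8 ± 1.10 in Stat5a-/- and 8.51 ± 0.319 in Stat5b-/- cells. Ccnd2, cyclin D2, fell in Stat5b-/- cells (-0.79, SE 0.10), and Trp53, which encodes p53, did not pass in any comparison.

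Of 11 tested genes known as BACH1 targets, 2 rose and 3 fell in Stat5b-/- against wt, and 2 rose and 2 fell in Stat5a-/- against wt, shares near the 46.2% and 36% of all genes. Hmox1, which encodes haem oxygenase 1 and is the best known of them, fell from 58.8 ± 1.68 CPM in wt to 27.2 ± 1.28 in Stat5a-/- and 16.2 ± 2.03 in Stat5b-/- cells. Nqo1, a quinone reductase, rose from 0.285 ± 0.235 CPM in wt to 4.56 ± 0.611 in Stat5a-/- and 3.42 ± 0.243 in Stat5b-/- cells. Fth1, the ferritin heavy chain, rose in Stat5a-/- (log2 fold change 1.46, SE 0.12) and fell in Stat5b-/- cells (-0.50, SE 0.12), and its processed pseudogenes make the count uncertain.

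**Figure D4:**
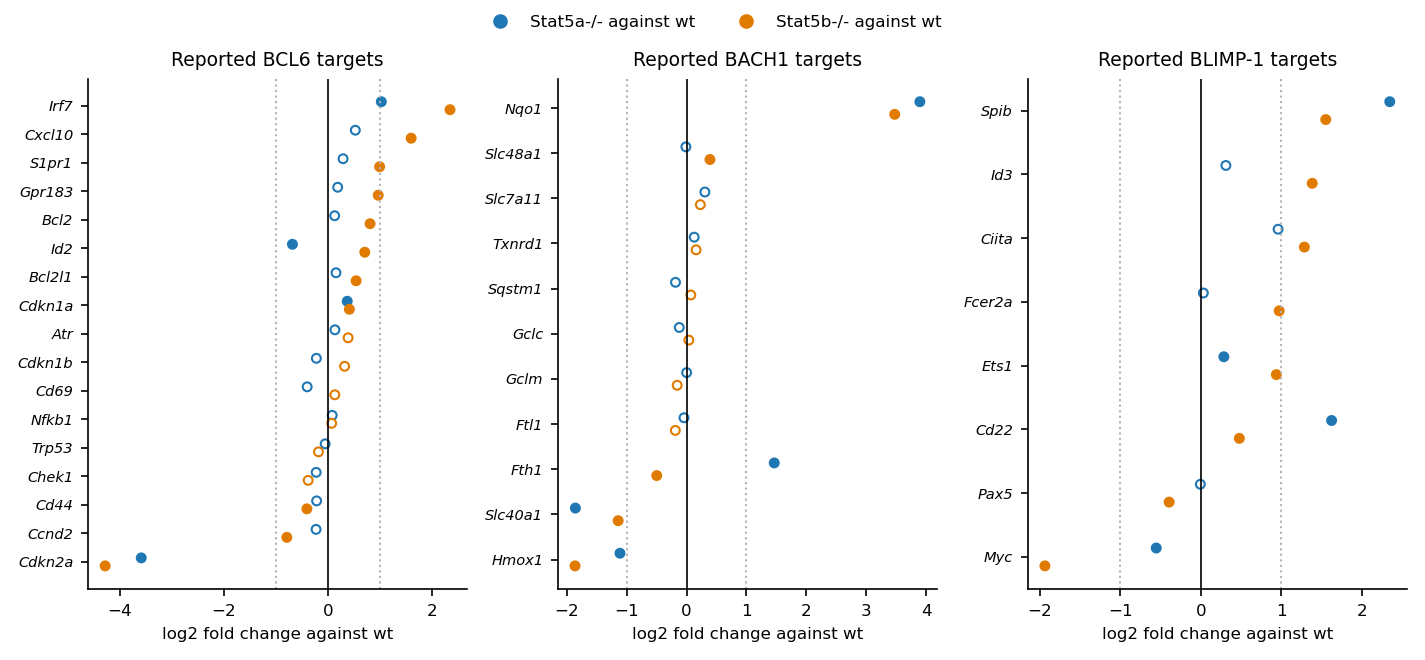
Log2 fold change against wt (x) of most of the tested genes known to be repressed by BCL6, BACH1 and BLIMP-1 (y) in Stat5a-/- and Stat5b-/- cells; filled points passed an adjusted p of 0.05 and dotted lines mark a log2 fold change of 1 in either direction. Hmox1 and Cdkn2a fell in both knockouts, while Nqo1, Irf7 and Spib rose in both.

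The genes whose pattern over the 9 libraries was most like each member were found by the root-mean-square difference of centred log2 CPM. They were Map3k20 (0.151), Pfn2 (0.155) and Zc3hav1l (0.159) for Bcl6. For Bach1 they were Kifc1 (0.0668), Syk (0.0742) and Mlec (0.0787), and for Bach2 Brip1os (0.0476), C2cd3 (0.0519) and Mcm3ap (0.0597). Prdm1 was nearest to Klre1 (0.160), Pigv (0.193) and Grk3 (0.206), and Xbp1 to Man1a (0.0848), Pcgf5 (0.0938) and Gadd45b (0.111). The spread of each member's own values was 0.433 for Bcl6, 0.322 for Bach1, 0.205 for Bach2, 0.578 for Prdm1 and 0.542 for Xbp1 on the same scale.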

How the data were processed

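RNA-seq was carried out on 9 libraries, 3 technical replicates of 1 cell line for each of 3 genotypes. The authors trimmed the reads with Trimmomatic, aligned them to GRCm38 with STAR and deposited raw read counts per gene from featureCounts 1.5.1, counted without strand. Samples were grouped by their labels. Counts were tested with edgeR 4.0.16 in R 4.3.3 (filterByExpr, TMM factors, quasi-likelihood F test over all 9 libraries), with Benjamini-Hochberg adjustment over 13852 genes and a limit of 0.05. The study's tool, DESeq2 1.42.0, was run as an alternative. Normalized CPM are counts scaled to the TMM-adjusted library total, and the pattern search added 0.5 CPM. The standard error is the log2 fold change over the root of F. Library totals were 11948136 to 19016396, and intervals on counts cover counting error only. On simulated counts for Stat5b-/- against wt, 196 of the 13565 genes tested were changed and the rest were not. There edgeR called 90.2% of genes changed 2-fold or more and 39.1% of those changed 1.5-fold, with 9 false calls. In the data 46.2% of genes were called, so the adjustment differs and these shares do not give the sensitivity of the calls here. The 5 genes and the gene lists were chosen with earlier results of these data known. Named genes were the 5 members, a set listed with the design and, per list and comparison, up to 3 risen and 3 fallen genes with the largest log2 fold change, and some of these are not reported here. Alternatives were other scaling factors, filters, models, a GC offset and each library left out. Sequences are from RefSeq, in which all 5 genes were matched.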

Additional observations from a re-analysis of the deposited data

How the results depend on the processing

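No call of the 5 genes was reversed under the alternatives run. The difference of Bach1 between the knockouts, which did not pass, changed sign among them, from -0.10 to 0.13 on the log2 scale. All 15 member values kept their call with DESeq2, upper-quartile factors, a mean of at least 10 counts, a GC offset, and a GC offset with the replicate block, the GC settings having been chosen after seeing the data. The rise of Bach2 in Stat5b-/- against wt was lost with RLE factors (log2 fold change 0.27, edgeR adjusted p = 0.0560), without a filter on low counts (0.27, 0.0832) and with only the 2 genotypes compared (0.27, 0.0722). Leaving out 1 library gave 0.22 to 0.37 for it, and 0.80 to 1.28 for Prdm1 between the knockouts. Replicate numbers did not pair the libraries (mean r -0.11 over 9 same-numbered pairs, 2 above 0.1). With the replicate block, Bach2 in Stat5b-/- against wt (0.29, edgeR adjusted p = 0.0767) and Prdm1 between the knockouts (1.04, 0.0658) were past the limit no longer. The cause was not tested.

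Testing for a change beyond 1 on the log2 scale asks for a larger effect by construction. It called 0 members in Stat5b-/- against wt (Bach1 0.65, Bach2 0.29, Prdm1 1.65, Xbp1 0.75), 1 in Stat5a-/- against wt (lost: Bcl6 -0.77, Bach1 0.65) and 0 between the knockouts (Bcl6 1.01, Bach2 0.45, Prdm1 1.04, Xbp1 -0.56), beside 9.83%, 8.79% and 5.51% of all genes. In the same order it called 14, 11 and 6 genes of the pathway lists, from 64, 43 and 52. Secretory-pathway genes lower numbered 1, 1 and 0, from 14, 6 and 10, and plasma-cell genes lower 4, 2 and 1, from 7, 6 and 7. In Stat5b-/- against wt, 0 secretory-pathway genes were higher, from 3, and 2 plasma-cell genes, from 5.

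The summed T-cell markers did not overlap between wt and Stat5b-/- libraries, so genotype and markers cannot be told apart in a fit with them as a covariate. It called 0 members in Stat5b-/- against wt (Bach1 0.96, Bach2 0.44, Prdm1 0.93, Xbp1 0.42), beside 10.8% of all genes. Bcl6 in Stat5a-/- against wt was -0.67 and Prdm1 between the knockouts 0.72, neither past the limit. The pathway lists then had 17 calls in Stat5b-/- against wt and 26 between the knockouts, with 3 secretory-pathway genes lower in each. In Stat5b-/- against wt, 0 secretory-pathway genes and 1 plasma-cell gene were higher. Plasma-cell genes lower numbered 3 in Stat5b-/- and 3 in Stat5a-/- against wt. With the GC offset, 16 secretory-pathway genes were lower in Stat5b-/- than in Stat5a-/- cells, from 10 without it.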
